A study of Mus musculus with 24 samples.

Results

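Loss of Apc was compared in crypts that had also lost Notchless, 48 h after gene deletion was induced. On day 2, 3 mice with conditional deletion of both Apc and Nle1 (ApccKO;NlecKO, the double knockout) were set against 3 mice with conditional deletion of Nle1 alone (NlecKO). These 6 libraries were picked by genotype and day from the 24 of the series, which holds 3 mice for each of 4 genotypes on each of 2 days. By their labels all 6 mice carry the Nle1 deletion, so that the genotypes differ in Apc alone. All mice, controls included, were 5 to 10 weeks old and received tamoxifen at 56 mg/kg by intraperitoneal injection on 3 consecutive days, and crypts came from 5 to 10 cm of jejunum. Day 1 stands for 24 h and day 2 for 48 h after induction. Further groups used here are ApccKO and Control on day 2, in which Nle1 is present, and the double knockout and NlecKO on day 1. Sources used here do not give the Cre line, the cells in which it acts or the exons it removes. Whole crypt preparations were sequenced, so the RNA can hold that of cells that escaped deletion and of cells other than epithelium.

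APC is the scaffold of a cytoplasmic complex that marks beta-catenin for destruction. When APC is lost, beta-catenin builds up, enters the nucleus and joins TCF and LEF proteins at Wnt target genes, among them genes whose products dampen the pathway again. In the small intestine this pathway keeps stem and progenitor cells at the crypt base, and loss of Apc is the usual first step of colorectal tumours. Notchless, the product of Nle1, is needed to mature the large ribosomal subunit, and its loss in crypts is known to activate p53.

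Promoter sequence of 3 Wnt target genes that rose is shown, since TCF and LEF proteins act at DNA near such genes. The motif searched was CTTTGAT or, on the other strand, ATCAAAG, in the 250 bases before each start in RefSeq (GRCm38.p6). Sequences read 5′ to 3′ on the strand of the gene, with the motif in capitals. Axin2 (chr11:108920099-108920348, plus strand) has no match in this window. Sp5 (chr2:70474673-70474922, plus strand) has 1 match that begins 104 bases before its start. Tnfrsf19 (chr14:61037988-61038237, minus strand) has 1 match, in 1 of its 2 windows, that begins 202 bases before the start.
Axin2: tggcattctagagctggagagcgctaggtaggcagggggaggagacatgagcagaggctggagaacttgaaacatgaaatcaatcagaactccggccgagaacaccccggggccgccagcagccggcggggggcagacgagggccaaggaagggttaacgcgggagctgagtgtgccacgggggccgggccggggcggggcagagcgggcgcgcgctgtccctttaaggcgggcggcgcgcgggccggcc
Sp5: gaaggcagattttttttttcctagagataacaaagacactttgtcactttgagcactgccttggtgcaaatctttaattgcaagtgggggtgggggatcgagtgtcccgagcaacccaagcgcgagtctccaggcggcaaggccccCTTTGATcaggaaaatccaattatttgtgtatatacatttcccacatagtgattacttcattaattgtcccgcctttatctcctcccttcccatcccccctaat
Tnfrsf19: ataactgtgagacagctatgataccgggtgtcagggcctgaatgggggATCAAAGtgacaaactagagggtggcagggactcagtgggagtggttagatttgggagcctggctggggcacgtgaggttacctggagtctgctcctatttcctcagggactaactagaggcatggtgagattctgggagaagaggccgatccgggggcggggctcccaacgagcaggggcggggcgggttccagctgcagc
Across all RefSeq promoter windows, 1053 of 32851 held the motif (3.21%), as did at least 1 window of 1005 of 27025 genes (3.72%). Of 79 tested genes on the lists of Wnt feedback inhibitors, TCF and LEF factors, Wnt targets and stem cell markers, 58 had a window and 3 held the motif (5.17%), namely Sp5, Tnfrsf19 and Mmp7. All 3 were among the 30 of these 58 genes that were called higher, and the lists were chosen with earlier results known. Whether the motif goes with the rise was not tested. A match describes the letters of the window and is not a measured binding site.

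The 6 libraries held 18.02 to 23.65 M estimated counts in the double knockout and 18.19 to 26.47 M in NlecKO, within the range of 17.86 to 26.47 M over all 24. The test took in 16552 of 37620 genes, those above a minimum of counts, and the biological coefficient of variation was 17.6%. By Y-linked genes 1 of the 3 double knockout mice and 2 of the 3 NlecKO mice were male. In the submitters' code numbers the Apc-lost libraries form 1 run, so handling tied to that order and Apc state cannot be told apart. Levels are given as CPM, counts scaled to a common library size with TMM factors, and TPM from the authors' table is used only where genes are compared with each other. Fold changes are the double knockout over NlecKO on the log2 scale ± SE, and a gene is called where the adjusted p of edgeR's quasi-likelihood test is under 0.05. Where all 6 values of a gene on day 2 are printed, the groups do not overlap unless an overlap is stated. In bulk RNA fewer cells of a type and less RNA per cell cannot be told apart.

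The transcript counts of the targeted genes came first. Apc had 141, 148 and 142 CPM in the double knockout, against 145, 144 and 149.7 CPM in NlecKO. These groups overlapped, and the fold change was -0.03 ± 0.08, adjusted p = 0.815. A transcript that lacks an exon still counts as Apc here, so the count does not check the deletion. Nle1, deleted in both groups, had 11.0, 9.60 and 8.83 CPM in the double knockout, against 7.30, 5.52 and 7.25 CPM in NlecKO. It averaged 34.9 CPM in ApccKO and 22.7 CPM in Control on the same day. Nle1 was higher in the double knockout than in NlecKO by 0.56 ± 0.17, adjusted p = 0.0104. This call ended without double knockout replicate 1 (adjusted p = 0.0523) and without NlecKO replicate 2 (adjusted p = 0.0697).

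With Apc lost as well, 7920 of the 16552 tested genes changed in Notchless-lost crypts (47.8%), of which 4240 were higher (25.6%) and 3680 lower (22.2%) in the double knockout. The change was at least 2-fold for 1186 of the raised and 1731 of the lowered genes, at least 4-fold for 388 and 602, and at least 16-fold for 67 and 88. The median over all tested genes was 0.05. The libraries of the groups did not overlap for 9656 genes (58.3%), so counts within a group of genes are read against these shares.

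Among genes of at least 5 CPM whose groups did not overlap, the most raised was Msx1, a homeobox transcription factor, with 25.9, 26.6 and 27.5 CPM in the double knockout, against 0.186, 0.0830 and 0.243 CPM in NlecKO. It was close to absent from all 3 NlecKO libraries and differed by 7.25 ± 0.67, adjusted p = 2.75e-07. Gulo, which makes the last enzyme of vitamin C synthesis, had 36.8, 21.8 and 36.9 CPM in the double knockout, against 0.186, 0.249 and 0.203 CPM in NlecKO (7.17 ± 0.67, adjusted p = 2.65e-07). Gulo lies next to Clu on chromosome 14 with no gene between them, and Clu had 288, 216 and 229.7 CPM in the double knockout, against 5.94, 9.42 and 22.8 CPM in NlecKO (4.24 ± 0.46, adjusted p = 2.04e-06). Gulo was picked among genes without overlap, and the groups of Clu did not overlap either. Rgs5, a regulator of G protein signalling, had 18.4, 11.5 and 13.7 CPM in the double knockout, against 0.0619, 0.373 and 0.324 CPM in NlecKO (5.71 ± 0.54, adjusted p = 1.54e-07). Meg3 and Rian, maternally expressed noncoding RNAs of 1 imprinted region of chromosome 12, rose by 4.54 ± 0.31 and 5.13 ± 0.47 (adjusted p = 3.79e-09 and 1.27e-07). Meg3 had 48.0, 30.4 and 41.3 CPM in the double knockout, against 1.61, 2.08 and 1.42 CPM in NlecKO. Anxa10 and Anxa8, of the annexin family, rose by 4.802 ± 0.588 and 4.77 ± 0.52 (adjusted p = 3.68e-06 and 1.42e-06). Rab11fip5, an effector of the recycling GTPase Rab11, rose by 4.76 and Adam8, a membrane metalloprotease, by 4.43 (adjusted p = 4.11e-06 and 1.33e-06). Ly6a, the surface antigen Sca-1, had 122, 220.5 and 214 CPM in the double knockout, against 1.86, 5.56 and 10.9 CPM in NlecKO (4.88 ± 0.69, adjusted p = 2.84e-05), and Ly6c1 beside it on chromosome 15 rose by 4.61 (adjusted p = 4.54e-05). Of the 31-base words of these transcripts, 31.9% for Ly6a and 46.8% for Ly6c1 occur in another gene, so their counts are uncertain.

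Rps3a, on the list of ribosomal proteins, was also among the 12 most raised, at 523, 591 and 580.4 CPM in the double knockout, against 7.18, 8.51 and 10.7 CPM in NlecKO. Its steps followed Apc state in the whole series, with 450.0 to 628 CPM in the 12 Apc-lost libraries and 5.57 to 10.7 CPM in the 12 Apc-intact ones. Near-identical copies hold 76.9% of its words. Rplp0 had steps of the same direction, at 1702, 1883 and 1968 CPM in the double knockout, against 81.5, 101 and 95.8 CPM in NlecKO, and shares 42.8% of its words. The provisional gene Gm5506, of which 89.0% is shared and mostly with Eno1, went the other way with 0 to 0.26 CPM in the double knockout and 168 to 192 CPM in NlecKO. Eno1 itself was not called (0.04, adjusted p = 0.873). How counting split these copies was not tested.

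Of the 12 most lowered genes, Car4, a membrane-bound carbonic anhydrase, had 0.0831, 0.322 and 0.260 CPM in the double knockout, against 95.1, 77.6 and 60.7 CPM in NlecKO (-8.49 ± 0.49, adjusted p = 1.67e-09). Pck1, the enzyme that commits carbon to gluconeogenesis, had 2.95, 1.56 and 1.40 CPM in the double knockout, against 237, 178 and 125 CPM in NlecKO (-6.48 ± 0.88, adjusted p = 2.05e-05), and G6pc, which releases free glucose, had 0.707, 0.0536 and 0.364 CPM in the double knockout, against 37.4, 34.4 and 25.9 CPM in NlecKO (-6.33 ± 0.88, adjusted p = 2.35e-05). Lack of overlap was a condition for naming these 3 genes, so the separation of their groups is no separate result. Slc28a1, a concentrative nucleoside transporter, had 1.66, 1.07 and 1.30 CPM in the double knockout, against 76.0, 57.3 and 57.9 CPM in NlecKO (-5.54 ± 0.82, adjusted p = 4.35e-05). Slco2b1, an organic anion transporter, fell by 5.50 and Otop3, a proton channel, by 5.81 on the log2 scale (adjusted p = 4.5e-08 and 1.24e-05). Slc5a4a, of the sodium glucose transporter family, had 0.416, 0.107 and 0.156 CPM in the double knockout, against 43.3, 42.7 and 20.7 CPM in NlecKO (-7.17 ± 1.11, adjusted p = 6.41e-05). The other 5 are enzymes that modify drugs, hormones and retinoids and belong to families of near-identical genes. Ugt2b5, Ugt2b36 and Ugt1a9, glucuronosyltransferases, had log2 fold changes of -7.24, -5.49 and -5.52, and Cyp3a11, a cytochrome P450, and Rdh7, a retinol dehydrogenase, of -5.84 and -5.65 (adjusted p = 6.91e-06, 4.11e-06, 3.25e-05, 0.000875 and 1.19e-05). Between 12% and 67.8% of their words occur in other genes, and Ugt1a9 was at 0 in double knockout replicate 1.

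**Figure D1:**
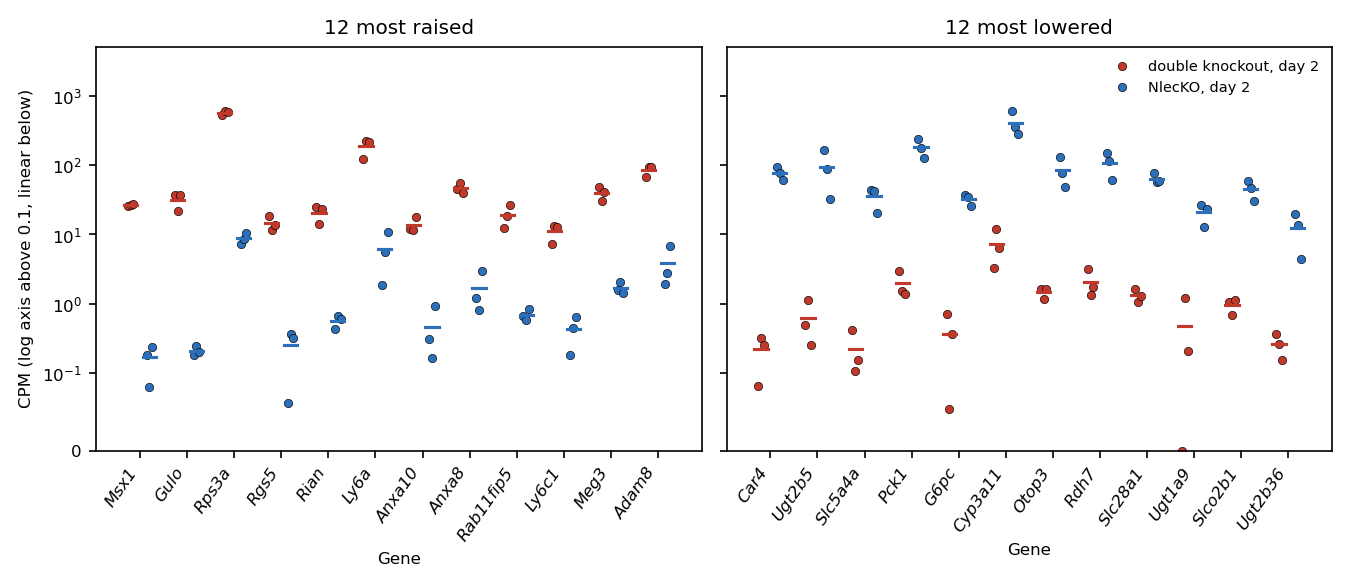
Level in CPM (vertical axis, logarithmic above 0.1 and linear below) of the 12 most raised genes (left) and the 12 most lowered genes (right) in each of the 3 double knockout libraries (red) and the 3 NlecKO libraries (blue) of day 2, with a bar at the group mean. The genes were chosen among those whose groups do not overlap. Msx1 lies at 25.9 to 27.5 CPM in the double knockout against 0.083 to 0.243 CPM in NlecKO.

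Several feedback inhibitors of Wnt signalling were higher in the double knockout. Axin2, which rebuilds the destruction complex, had 344, 279 and 309.8 CPM in the double knockout, against 126, 96.9 and 99.7 CPM in NlecKO. All 3 double knockout libraries were above all NlecKO libraries, and the fold change was 1.53 ± 0.15, adjusted p = 2.38e-07. Nkd1, which binds Dishevelled, had 59.8, 38.1 and 36.4 CPM in the double knockout, against 6.69, 5.15 and 6.2001 CPM in NlecKO (2.91 ± 0.26, adjusted p = 1.86e-07). Notum, the secreted enzyme that removes the lipid from Wnt proteins, had 22.6, 16.8 and 19.9 CPM in the double knockout, against 0.681, 0.789 and 1.38 CPM in NlecKO (4.34 ± 0.33, adjusted p = 9.83e-09) and was the most changed of the list. Rnf43 and Znrf3, ubiquitin ligases that clear Frizzled receptors from the surface, rose by 1.46 ± 0.09 and 0.999 ± 0.13 (adjusted p = 2.89e-10 and 5.16e-06). Rnf43 had 292, 265 and 288 CPM in the double knockout, against 108, 95.2 and 105 CPM in NlecKO. Per length, Axin2 averaged 126 TPM in the double knockout and 39.0 TPM in NlecKO, Nkd1 12.9 TPM in the double knockout and 1.58 TPM in NlecKO and Notum 18.6 TPM in the double knockout and 0.812 TPM in NlecKO, so Axin2 was the most abundant of the 3 transcripts in both groups.

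Of 18 tested feedback inhibitors 8 were higher and 2 lower, with a median of 0.59 against 0.05 over all genes. The others called higher were Kremen1, a receptor of Dickkopf proteins (0.34, adjusted p = 0.00227), and 2 genes of low level, the secreted Wnt inhibitor Wif1 (2.82, adjusted p = 0.00121) and Apcdd1 (1.17, adjusted p = 0.0086). Apcdd1 lost its call without double knockout replicate 1 (adjusted p = 0.0585) and without NlecKO replicate 2 (adjusted p = 0.0623). The 2 that fell were secreted Frizzled-related proteins. Sfrp4 had 1.33, 0.429 and 0.831 CPM in the double knockout, against 7.18, 7.06 and 4.66 CPM in NlecKO (-2.82 ± 0.49, adjusted p = 0.000127), and Sfrp5 had 2.04, 0.697 and 0.883 CPM in the double knockout, against 11.4, 3.61 and 3.65 CPM in NlecKO (-2.29 ± 0.56, adjusted p = 0.00279). For Sfrp5, NlecKO replicate 1 stood above the other two NlecKO libraries. Shisa2, which holds Frizzled receptors in the endoplasmic reticulum, had 41.9, 46.2 and 42.9 CPM in the double knockout, against 32.4, 29.0 and 40.5 CPM in NlecKO and was not called (0.36, adjusted p = 0.0645). The remaining 7, Dkk2, Dkk3, Dkk4, Nkd2, Kremen2, Shisa3 and Draxin, were of low level and were not called. Dkk1, Sfrp1 and Sfrp2 did not pass the filter.

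Of 19 tested members of the destruction complex and its regulators 5 were higher, 1 was lower and 13 were not called, a smaller share called than over all genes, with a median of 0.14. Csnk1e, a casein kinase 1 that acts on Dishevelled, had 57.0, 62.3 and 54.98 CPM in the double knockout, against 20.1, 20.2 and 25.1 CPM in NlecKO (1.41 ± 0.16, adjusted p = 1.54e-06), with no overlap between the groups. Gsk3a, a kinase that phosphorylates beta-catenin, was the only member called lower, at 94.3, 94.1 and 92.6 CPM in the double knockout, against 145, 124 and 121 CPM in NlecKO (-0.47 ± 0.10, adjusted p = 0.000486). Csnk1d, Tnks2, which marks Axin for removal, and Ppp2r1a, a phosphatase scaffold, rose by 0.25, 0.33 and 0.27 (adjusted p = 0.00147, 0.00196 and 0.00349). Ctnnb1, the gene of beta-catenin, had 1027, 1076 and 1139 CPM in the double knockout, against 889, 876 and 999 CPM in NlecKO (0.23 ± 0.09, adjusted p = 0.0405), a call that ended without double knockout replicate 2 or 3 or NlecKO replicate 1 or 2, with adjusted p between 0.075 and 0.144. That call also ended with DESeq2's size factors, no filter, 2 CPM in 3 libraries or only the libraries compared. There the adjusted p was 0.0593 to 0.155. Not called were Apc, Axin1 (0.15), Gsk3b (0.07), Csnk1a1 (0.17), Btrc (0.32), Fbxw11 (0.05), Tnks (0.14), Dvl1 (-0.18), Dvl2 (0.24), Dvl3 (0.13), Amer1 (0.09), Amer2 (0.10) and Ppp2ca (0.00). The smallest adjusted p among them was 0.0548, for Btrc.

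Among the nuclear partners of beta-catenin, Tcf7 and Lef1 rose. Tcf7 had 72.5, 71.1 and 70.0 CPM in the double knockout, against 22.5, 21.5 and 26.0 CPM in NlecKO (1.61 ± 0.12, adjusted p = 1.53e-08). Lef1, close to silent in NlecKO, had 6.07, 5.85 and 4.47 CPM in the double knockout, against 1.18, 1.37 and 0.608 CPM in NlecKO (2.38 ± 0.28, adjusted p = 2.03e-06). Tcf7l2, the usual TCF of intestinal epithelium, had 36.4, 34.4 and 35.1 CPM in the double knockout, against 31.1, 37.7 and 35.5 CPM in NlecKO, with overlapping groups and a fold change of 0.02 ± 0.10, adjusted p = 0.861. Tcf7l1 was not called either (-0.20, adjusted p = 0.716). The co-activators Bcl9, Bcl9l and Pygo2 rose by 0.97 ± 0.11, 0.43 ± 0.10 and 0.43 ± 0.09 (adjusted p = 1.96e-06, 0.00103 and 0.000411). Ctnnbip1, which keeps beta-catenin from TCF, had 16.7, 16.8 and 18.1 CPM in the double knockout, against 27.8, 27.3 and 31.2 CPM in NlecKO (-0.75 ± 0.09, adjusted p = 4.51e-06). Of the Groucho repressors, Tle1 rose (0.48, adjusted p = 0.000137), Tle4 fell (-0.50, adjusted p = 0.000126), and Tle2 and Tle3 were not called (-0.36, adjusted p = 0.234; 0.02, adjusted p = 0.861). The acetyltransferases Ep300 and Crebbp were not called (-0.09, adjusted p = 0.317; 0.03, adjusted p = 0.749). In all, 6 of 14 tested members were higher and 2 lower, with a median of 0.03, below the 0.05 of all genes.

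Of 27 tested Wnt ligands and receptors 13 were higher and 5 lower, with a median of 0.54. Fzd5, a Frizzled receptor of crypt cells, had 58.6, 64.0 and 60.6 CPM in the double knockout, against 269, 242 and 205 CPM in NlecKO (-1.97 ± 0.10, adjusted p = 7.61e-11), the smallest p of the list and a fall. Lgr4, a receptor of R-spondins, had 206, 208 and 197 CPM in the double knockout, against 118, 108 and 115 CPM in NlecKO (0.84 ± 0.09, adjusted p = 6.82e-07), and Ror2, a receptor of Wnt5a, had 42.8, 42.9 and 40.1 CPM in the double knockout, against 19.1, 17.2 and 22.0 CPM in NlecKO (1.11 ± 0.13, adjusted p = 2.32e-06). Wnt3, the Wnt ligand made by Paneth cells, had 34.4, 24.2 and 21.3 CPM in the double knockout, against 10.4, 9.55 and 10.1 CPM in NlecKO (1.41 ± 0.19, adjusted p = 7.33e-06). Wnt10a was near 0 in NlecKO, with 4.61, 3.76 and 5.09 CPM in the double knockout, against 0.248, 0.207 and 0.243 CPM in NlecKO (4.24 ± 0.38, adjusted p = 2.08e-07). These 5 genes, named for the smallest p of the list, had no overlap between the groups. Nor had 19 of the 27 in all, against 58.3% of all genes. The other 4 members that fell were Wnt4 (-1.9996, adjusted p = 7.69e-06), Fzd4 (-1.74, adjusted p = 0.000141), Lrp6 (-0.38, adjusted p = 0.00103) and Wnt9b (-1.08, adjusted p = 0.049978), named after their values were seen. Wnt9b lost its call without any of double knockout replicates 2 and 3 and NlecKO replicates 1 and 3 (adjusted p = 0.071 to 0.181).

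Wnt target transcription factors and growth genes gave the highest median of the Wnt lists, 1.16, with 18 of 27 tested members higher and 3 lower. Sox4 had 250.2, 267 and 288 CPM in the double knockout, against 54.4, 41.7 and 62.9 CPM in NlecKO (2.34 ± 0.19, adjusted p = 3.2e-08), and Sox9, a factor of crypt progenitors and Paneth cells, had 367, 385 and 425 CPM in the double knockout, against 69.3, 85.1 and 145 CPM in NlecKO (1.97 ± 0.20, adjusted p = 5.45e-07). NlecKO replicate 3 had the highest Sox9 of its group and still lay well below the double knockout. Mmp14, a membrane matrix metalloprotease, had 122, 122 and 103 CPM in the double knockout, against 31.7, 35.6 and 36.4 CPM in NlecKO (1.74 ± 0.16, adjusted p = 1.17e-07). Prox1, a homeobox factor, had 27.1, 22.0 and 20.4 CPM in the double knockout, against 4.21, 3.15 and 4.17 CPM in NlecKO (2.60 ± 0.28, adjusted p = 1.17e-06). Tnfrsf19, a TNF receptor family member whose promoter motif is printed above, had 59.5, 44.9 and 40.4 CPM in the double knockout, against 8.42, 6.35 and 8.92 CPM in NlecKO (2.62 ± 0.25, adjusted p = 3.5e-07). Sp5, also with its promoter printed above, had 101, 82.4 and 108 CPM in the double knockout, against 31.3, 23.6 and 22.6 CPM in NlecKO (1.92 ± 0.21, adjusted p = 1.18e-06). Myc and Ccnd1, the growth genes most often tied to the pathway, rose by 1.16 ± 0.20 and 1.57 ± 0.26 (adjusted p = 0.000114 and 8.74e-05). Myc had 274, 308 and 349 CPM in the double knockout, against 104, 127 and 187 CPM in NlecKO, and Ccnd1 had 604, 682 and 759 CPM in the double knockout, against 162, 194 and 333 CPM in NlecKO. Those called lower were Fgf9 (-1.10, adjusted p = 0.00251), Ppard (-0.48, adjusted p = 0.00948) and Zbtb7c (-1.12, adjusted p = 0.0182), named after their values were seen. Zbtb7c lost its call without double knockout replicate 1 or NlecKO replicate 1 or 3 (adjusted p = 0.0657 to 0.0887).

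**Figure D2:**
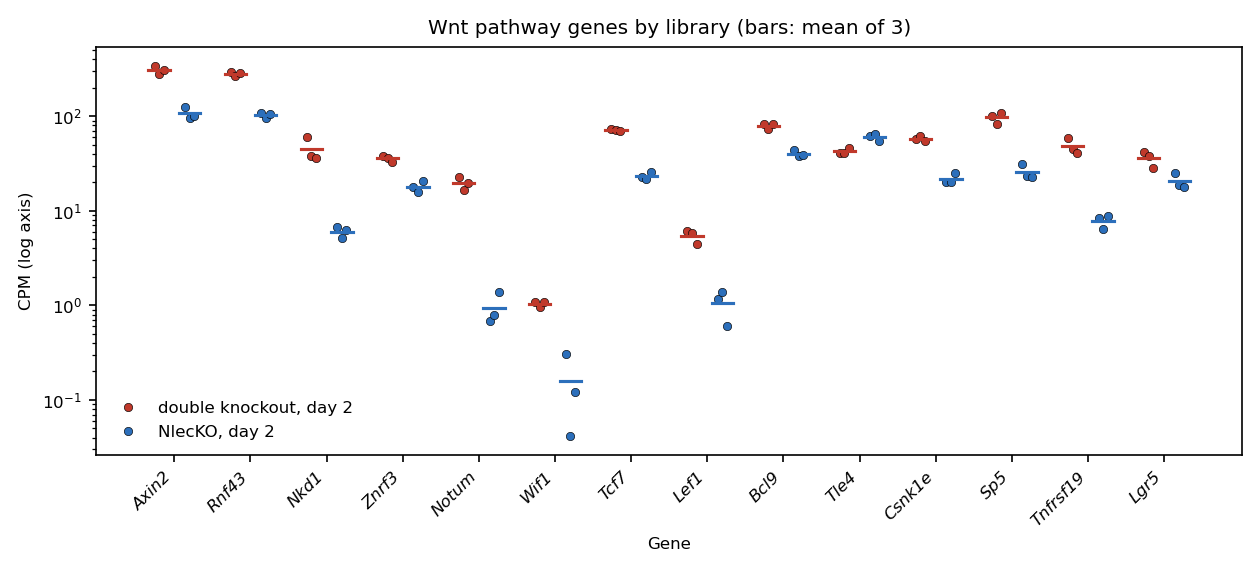
Level in CPM (vertical axis, logarithmic) of 14 Wnt pathway genes in each of the 3 double knockout libraries (red) and 3 NlecKO libraries (blue) of day 2, with a bar at the group mean. In 13 of the 14 genes every double knockout library is above every NlecKO library, and in Tle4 every one is below.

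Of 29 tested markers of crypt base stem cells 19 were higher and 4 lower, with a median of 0.75. Lgr5 and Olfm4, in wide use for these cells, went opposite ways. Lgr5, the R-spondin receptor that marks cycling stem cells, had 41.7, 38.0 and 28.6 CPM in the double knockout, against 25.4, 18.6 and 17.7 CPM in NlecKO. The groups did not overlap, but the gap was small beside the spread, and the fold change was 0.82 ± 0.26, adjusted p = 0.0144. Leaving out double knockout replicate 1, NlecKO replicate 2 or NlecKO replicate 3 ended the call, with adjusted p = 0.058, 0.0563 and 0.0573. Olfm4, a secreted glycoprotein of the same cells, fell, with 470.0, 391 and 267 CPM in the double knockout, against 983, 564 and 490.4 CPM in NlecKO (-0.85 ± 0.24, adjusted p = 0.00709). Its NlecKO group was led by replicate 1, and without that library the adjusted p was 0.0813. Smoc2 had 103, 89.8 and 67.6 CPM in the double knockout, against 68.6, 46.8 and 48.8 CPM in NlecKO, with overlapping groups (0.67 ± 0.19, adjusted p = 0.00693). Ascl2, the factor that sets stem cell fate, had 39.7, 40.9 and 40.1 CPM in the double knockout, against 16.4, 10.5 and 15.97 CPM in NlecKO and rose by 1.497 ± 0.168, adjusted p = 1.19e-06.

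The other raised markers were Rnf43, Axin2, Znrf3, Tnfrsf19 and Sox9, given above, and Mex3a (1.67, adjusted p = 5.72e-06), Cdca7 (0.93, adjusted p = 6.13e-06), Lrig1 (0.91, adjusted p = 1.92e-05), Slc12a2 (0.76, adjusted p = 2.44e-05), Ephb2 (0.75, adjusted p = 2.71e-05), Msi1 (1.02, adjusted p = 0.00033), Scn2b (1.73, adjusted p = 0.000649), Hopx (0.42, adjusted p = 0.000978), Cdk6 (0.57, adjusted p = 0.00473), Gkn3 (1.31, adjusted p = 0.0149) and Bmi1 (0.27, adjusted p = 0.0303). Gkn3 lost its call without double knockout replicate 1 (adjusted p = 0.18) or NlecKO replicate 2 (adjusted p = 0.0535), and Bmi1 without double knockout replicate 2 or 3 or NlecKO replicate 1 or 2 (adjusted p = 0.0901 to 0.143). Other genes also hold 28.2% of the words of Bmi1, so its count is uncertain to that extent. Mex3a, an RNA-binding protein of slowly cycling stem cells, had 19.3, 19.8 and 16.5 CPM in the double knockout, against 7.12, 5.02 and 5.43 CPM in NlecKO. Besides Olfm4, the markers that fell were Aqp4, a water channel, with 16.2, 13.6 and 11.0 CPM in the double knockout, against 62.3, 39.1 and 41.6 CPM in NlecKO (-1.80 ± 0.24, adjusted p = 1.07e-05), the vitamin D receptor Vdr (-2.19, adjusted p = 3.93e-07) and Sectm1b (-2.10, adjusted p = 0.00359). Aqp4 and Vdr were lower in each double knockout library than in any NlecKO library. Not called were Rgmb (0.50), Clca4 (-0.52), Tert (0.15), Zfp277 (0.10), Fstl1 (0.18) and Pdgfa (0.06). Per length, Olfm4 averaged 198 TPM in the double knockout and 324 TPM in NlecKO, and Lgr5 14.0 TPM in the double knockout and 6.30 TPM in NlecKO.

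**Figure D3:**
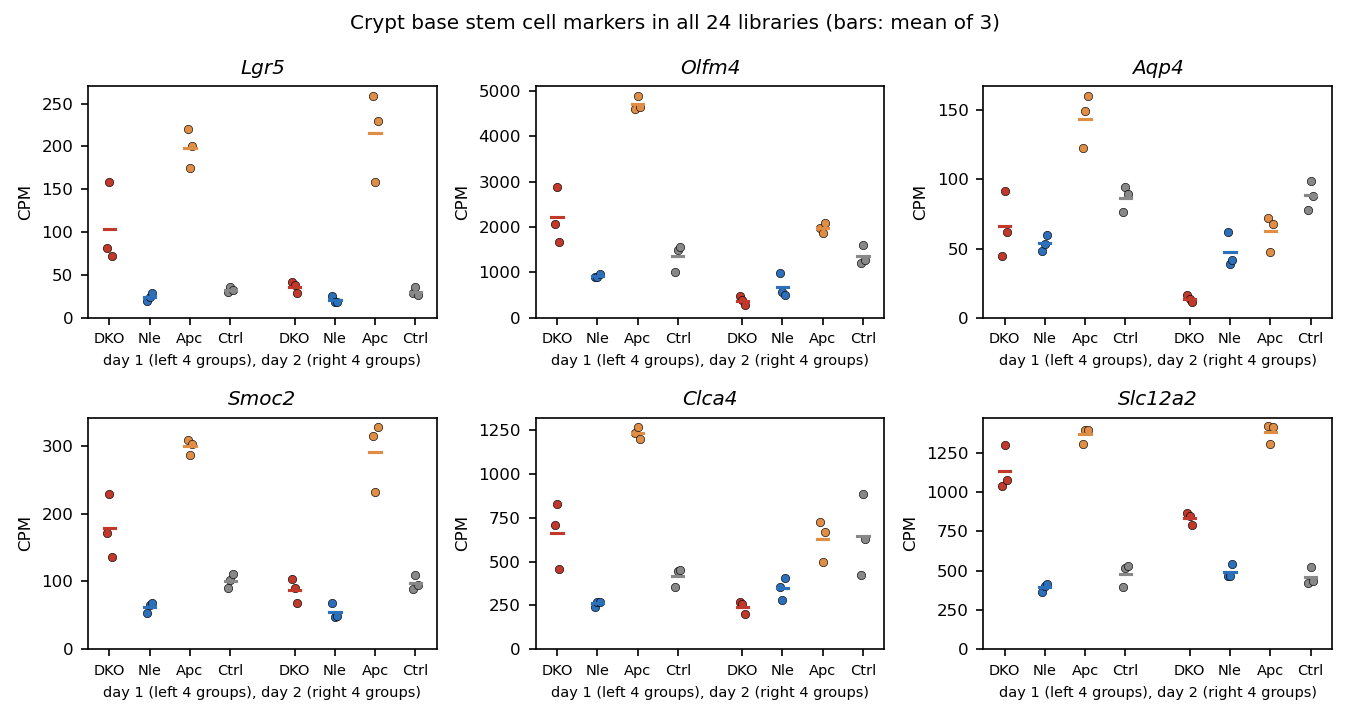
Level in CPM (vertical axis, linear) of 6 crypt base stem cell markers in each of the 24 libraries, by genotype (DKO, the double knockout; Nle, NlecKO; Apc, ApccKO; Ctrl, Control) on day 1 (left 4 groups) and day 2 (right 4 groups), with a bar at each mean. On day 2 Lgr5 averages 36.1 CPM in the double knockout and 20.6 CPM in NlecKO, and 216 CPM in ApccKO and 30.2 CPM in Control.

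Eph receptors and ephrins sort crypt from villus cells by contact. Ephb3, a receptor of the crypt base, had 178, 162 and 145 CPM in the double knockout, against 39.9, 33.7 and 43.3 CPM in NlecKO (2.05 ± 0.17, adjusted p = 5.51e-08), and Epha4 had 22.6, 27.2 and 24.2 CPM in the double knockout, against 4.46, 6.23 and 8.10 CPM in NlecKO (1.96 ± 0.23, adjusted p = 1.7e-06). The ligands Efna4 and Efna3 rose by 1.66 ± 0.12 and 1.73 ± 0.17 (adjusted p = 6.15e-09 and 2.75e-07). The 4 that fell were Epha1 (-1.41, adjusted p = 0.000554), Efna1 (-1.15, adjusted p = 0.000314), Efnb1 (-0.31, adjusted p = 0.00289) and Efnb2 (-0.53, adjusted p = 0.00826), the last 2 being ligands of the EphB receptors. In all, 7 of 16 tested genes were higher and 4 lower, with a median of 0.27.

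Of 23 Notch pathway genes 9 were higher and 5 lower (median 0.13). The receptors Notch2 and Notch4 rose (1.07, adjusted p = 4.04e-06; 1.57, adjusted p = 2.22e-05), the target Hes1 rose (0.94, adjusted p = 9.18e-06), and Hes6 had 205, 189 and 189.7 CPM in the double knockout, against 75.9, 59.3 and 76.9 CPM in NlecKO (1.46 ± 0.09, adjusted p = 1.11e-09). Dll1, a ligand of secretory precursors, had 22.0, 19.5 and 19.5 CPM in the double knockout, against 43.0, 47.3 and 39.3 CPM in NlecKO and fell by 1.08 on the log2 scale (adjusted p = 1.54e-06). Of 28 BMP and hedgehog genes 10 were higher and 7 lower (median 0.08). Id1, a direct target of BMP signals, had 85.7, 106 and 118 CPM in the double knockout, against 47.1, 39.4 and 38.2 CPM in NlecKO (1.31 ± 0.12, adjusted p = 1.52e-07), the receptors Acvr1 and Bmpr2 rose (0.61, adjusted p = 8.45e-06; 0.57, adjusted p = 5.32e-05), and the ligand Bmp3 fell (-1.97, adjusted p = 1.81e-05), as did the transducer Smad1 (-0.33, adjusted p = 7.58e-05). Of 21 genes of the EGF family and its receptors 10 were higher and 6 lower (median 0.39). Egfr had 73.1, 84.9 and 90.4 CPM in the double knockout, against 36.8, 46.3 and 56.0 CPM in NlecKO (0.83 ± 0.12, adjusted p = 1.41e-05), and its ligand Btc had 72.6, 83.3 and 88.3 CPM in the double knockout, against 11.0, 26.3 and 34.1 CPM in NlecKO (1.76 ± 0.25, adjusted p = 1.6e-05). Their restraints Lrig1 and Dusp4 rose (0.91, adjusted p = 1.92e-05; 1.38, adjusted p = 0.00022) and Lrig3 fell (-0.85, adjusted p = 4.19e-05). Without double knockout replicate 1, the number called lower in the EGF family was 3.

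Members of the Myc network moved in both directions. Beside Myc, given above, Mga (0.36, adjusted p = 0.00372) and Mnt (0.26, adjusted p = 0.0295) rose, and 6 of 13 fell, with a median of -0.12. Mnt lost its call without double knockout replicate 1 or 3 or NlecKO replicate 2 or 3 (adjusted p = 0.0679 to 0.126). Mxd1, a repressor of Myc targets in differentiating cells, had 56.9, 38.9 and 53.005 CPM in the double knockout, against 259, 247 and 156 CPM in NlecKO (-2.15 ± 0.45, adjusted p = 0.000896). The sugar-sensing factors Mlx and Mlxipl fell by 0.75 and 1.04 on the log2 scale (adjusted p = 5.36e-05 and 0.000103).

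Ribosome assembly genes rose by small amounts. Of 81 tested 71 were higher and none lower, with a median of 0.55. Rrn3, a factor of RNA polymerase I, had 75.9, 79.5 and 87.5 CPM in the double knockout, against 44.0, 52.8 and 56.8 CPM in NlecKO (0.66 ± 0.11, adjusted p = 5.1e-05). Rrp1b, a nucleolar protein of rRNA processing, had 97.4, 109 and 114 CPM in the double knockout, against 49.3, 58.4 and 64.5 CPM in NlecKO (0.90 ± 0.16, adjusted p = 0.000154). Ddx10, Taf1d and Wdr43 rose by 0.62, 0.45 and 0.68 (adjusted p = 0.000159, 0.000216 and 0.000252). Summed, the list ran at 9136 to 10813 CPM in the double knockout and 6208 to 8026 CPM in NlecKO. Among cytosolic ribosomal proteins 70 of 79 were higher and none lower, with a median of 0.42, and Rpl13a, Rps20 and Rplp1 rose by 0.82, 0.43 and 0.89 (adjusted p = 1e-05, 0.000191 and 2.62e-05). Rpl13a had 1629.5, 1718 and 1804 CPM in the double knockout, against 900.0, 898 and 1117 CPM in NlecKO. Near-identical copies hold 75.1% of the words of Rplp1, 28.3% of Rpl13a and 10.2% of Rps20, and the counts of this list, which include Rps3a and Rplp0, are uncertain to that extent. The summed level of the list was 52246 to 59425 CPM in the double knockout and 37093 to 45479 CPM in NlecKO. NlecKO replicate 3 was the highest of its group for 76 of the 81 assembly genes and 75 of the 79 ribosomal proteins. Without it 75 and 73 were called higher, and the lowest counts without 1 library were 62 and 56.

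Genes of de novo nucleotide synthesis rose in 17 of 27 cases and fell in 1, with a median of 0.38. Mthfd1l, which makes mitochondrial formate, had 47.5, 60.4 and 52.1 CPM in the double knockout, against 32.7, 28.3 and 34.5 CPM in NlecKO (0.74 ± 0.13, adjusted p = 0.000144), and Impdh1, Ctps and Gart, enzymes of guanine, cytidine and purine synthesis, rose by 0.95, 0.80 and 0.75 (adjusted p = 0.000146, 0.000324 and 0.000391).

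Of 41 DNA replication genes 13 were higher, 1 was lower and 27 were not called, with a median of 0.26. The lowered gene was Gmnn, whose call ended without double knockout replicate 3 (adjusted p = 0.186) and NlecKO replicate 1 (adjusted p = 0.282). The helicase subunit Mcm7 had 134, 136 and 121 CPM in the double knockout, against 92.7, 74.3 and 89.5 CPM in NlecKO (0.61 ± 0.14, adjusted p = 0.00178), and Mcm4 and Mcm2 rose by 0.55 and 0.56 (adjusted p = 0.00358 and 0.00536). Of the words of Mcm7 26.8% occur in other genes, so its count is uncertain to that extent. The origin factors Orc6 and Cdc6 rose by 0.45 and 0.60 (adjusted p = 0.00846 and 0.0107), calls that ended for Orc6 without double knockout replicate 2 (adjusted p = 0.0532) and for Cdc6 without NlecKO replicate 2 (adjusted p = 0.0657). NlecKO replicate 2 was the lowest of its group for 30 of the 41, and the count of raised genes was 6 without it, 7 without double knockout replicate 2 and 19 without NlecKO replicate 1. None of 37 mitosis and division genes was called by edgeR or by DESeq2, and none had an unadjusted p under 0.05 in edgeR, with a median of 0.10. Prc1, a spindle midzone protein with the smallest p of the list, had 49.4, 53.4 and 45.3 CPM in the double knockout, against 44.2, 36.8 and 39.9 CPM in NlecKO (0.29 ± 0.15, adjusted p = 0.103). Mki67, the proliferation antigen, had 144, 163 and 133 CPM in the double knockout, against 219.9, 160.4 and 159 CPM in NlecKO with an overlap of 1 double knockout library and 2 NlecKO libraries, and was not called (-0.30 ± 0.16, adjusted p = 0.144).

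Of 23 G1 cyclins, E2F factors and CDK inhibitors 5 were higher and 8 lower (median 0.07), counts that were 3 higher without NlecKO replicate 2 and 5 lower without NlecKO replicate 1. Ccnd1 and Ccnd2 led the raised genes, with Ccnd2 at 998, 1014 and 1112 CPM in the double knockout, against 425, 486 and 771 CPM in NlecKO (0.89 ± 0.20, adjusted p = 0.00105), and Cdk4, Cdk6 and Cdk2 were the other 3. Without NlecKO replicate 2 the adjusted p was 0.0641 for Cdk4 and 0.18 for Cdk2, and of the 6 libraries only double knockout replicate 3 could be left out with the call of Cdk2 kept. Cdk2 was not called by DESeq2 either (adjusted p = 0.0528). In edgeR its call also ended with DESeq2's size factors, no filter, 2 CPM in 3 libraries or only the libraries compared. A replicate block or a term for sex ended it as well. Over these edgeR fits the adjusted p of Cdk2 was 0.0506 to 0.079. Cdkn2b, an inhibitor of CDK4 and CDK6, had 9.85, 10.7 and 12.7 CPM in the double knockout, against 88.0, 95.8 and 75.3 CPM in NlecKO (-2.96 ± 0.33, adjusted p = 2.46e-06). Rb1 and Rbl2, pocket proteins that hold back E2F, fell by 1.10 and 0.63 on the log2 scale (adjusted p = 1.9e-08 and 8.37e-05), and E2f2 fell by 1.45 (adjusted p = 2.02e-06). Rb1 had 37.7, 38.3 and 36.9 CPM in the double knockout, against 77.6, 83.1 and 80.3 CPM in NlecKO, with little spread within either group.

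Targets of p53 were higher in 30 of 41 cases and lower in 2, with a median of 0.70. Ptp4a3, a phosphatase, had 191, 208 and 229.6 CPM in the double knockout, against 43.8, 66.3 and 95.6 CPM in NlecKO (1.61 ± 0.26, adjusted p = 8.35e-05). Dcxr, a carbonyl reductase, had 99.4, 107 and 122 CPM in the double knockout, against 52.7, 57.8 and 78.2 CPM in NlecKO (0.80 ± 0.13, adjusted p = 8.51e-05), and Pidd1, a death domain protein, had 68.9, 76.3 and 69.0 CPM in the double knockout, against 31.8, 33.4 and 42.8 CPM in NlecKO (0.99 ± 0.17, adjusted p = 8.74e-05). The death receptor Tnfrsf10b rose by 0.75 ± 0.13, adjusted p = 8.76e-05. The 2 that fell were Gadd45a, with 21.2, 14.4 and 20.5 CPM in the double knockout, against 63.6, 64.1 and 49.2 CPM in NlecKO (-1.65 ± 0.22, adjusted p = 8.65e-06), and Sesn1 (-1.92, adjusted p = 0.000121). In 34 of the 41 the highest NlecKO library was replicate 3, and without it 33 were called higher. Without NlecKO replicate 1 the count was 22. Of 33 genes of the integrated stress response 19 were higher and 5 lower (median 0.47), and 3 were lower without NlecKO replicate 3. Gars, a tRNA synthetase, had 294, 270.0 and 283 CPM in the double knockout, against 138, 137 and 163 CPM in NlecKO (0.95 ± 0.10, adjusted p = 9.09e-07). The factor Atf5, the amino acid transporter Slc7a5 and the mTORC1 inhibitor Ddit4 rose by 1.17, 1.29 and 1.21 (adjusted p = 2.75e-05, 0.000108 and 0.000181), and Cth, which makes cysteine, had 21.7, 18.7 and 22.4 CPM in the double knockout, against 83.7, 60.7 and 49.7 CPM in NlecKO (-1.62 ± 0.21, adjusted p = 6.16e-06).

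Among 30 Paneth cell markers 9 were higher, 4 lower and 17 not called, close to the shares over all genes (median 0.18), and 2 were lower without double knockout replicate 2. Pla2g2a, a secreted antibacterial phospholipase, had 364, 351 and 329 CPM in the double knockout, against 38.4, 43.8 and 58.6 CPM in NlecKO (2.89 ± 0.31, adjusted p = 1.34e-06). Mmp7, the protease that activates defensins, had 549, 505 and 383 CPM in the double knockout, against 138, 124 and 129.7 CPM in NlecKO (1.88 ± 0.32, adjusted p = 0.000134), and Habp2 and Nupr1 rose by 1.54 and 0.98 (adjusted p = 5.37e-05 and 0.000205). Mptx1, a pentraxin outside the rule for named genes, fell, with 7.73, 11.1 and 5.98 CPM in the double knockout, against 36.0, 44.3 and 45.1 CPM in NlecKO (-2.34 ± 0.47, adjusted p = 0.000662). Of 26 goblet cell markers 3 were higher and 11 lower, with a median of -0.13, and their summed level was 6288 to 7885 CPM in the double knockout and 13050.0 to 14916 CPM in NlecKO. Tff3, a peptide of mucus, had 465, 377 and 424 CPM in the double knockout, against 959, 945 and 851 CPM in NlecKO (-1.12 ± 0.12, adjusted p = 4.31e-07). Capn9, Fer1l6 and Klk1 fell by 1.94, 2.0002 and 1.33 on the log2 scale (adjusted p = 1.86e-07, 7.24e-07 and 1.17e-06), Klk1 with 40.5% of its words shared. Foxa3, a transcription factor also on the identity list, rose, with 54.9, 57.0 and 55.4 CPM in the double knockout, against 20.4, 23.4 and 27.1 CPM in NlecKO (1.24 ± 0.13, adjusted p = 5.34e-07). Fcgbp, a mucus protein, had 3367, 2416 and 3382 CPM in the double knockout, against 7057, 8005 and 6929 CPM in NlecKO (-1.26 ± 0.18, adjusted p = 1.22e-05). This gene alone held a large part of the summed level of the goblet list and of its fall, and 12 of the 26 markers were not called.

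Most markers of enteroendocrine and tuft cells fell. Of 33 enteroendocrine markers 24 were lower and 2 higher, with a median of -0.94. The incretin Gip had 72.6, 87.4 and 85.6 CPM in the double knockout, against 283, 292 and 329 CPM in NlecKO (-1.88 ± 0.16, adjusted p = 3.36e-08), and Gcg, which encodes glucagon and GLP-1, had 8.10, 8.10 and 6.81 CPM in the double knockout, against 32.8, 38.4 and 32.4 CPM in NlecKO (-2.17 ± 0.28, adjusted p = 6.21e-06). Ddc, Ghrl and Cpe fell by 2.75, 1.13 and 0.83 on the log2 scale (adjusted p = 1.51e-06, 1.07e-05 and 1.12e-05). Those called higher were Reg4 and Pcsk1n, of which Reg4 lost its call without double knockout replicate 1, NlecKO replicate 1 or NlecKO replicate 2 (adjusted p = 0.128 to 0.224). Of 24 tuft cell markers 23 were lower, with a median of -2.36 and a summed level of 106 to 126 CPM in the double knockout and 324 to 381 CPM in NlecKO. The cyclooxygenase Ptgs1 had 1.12, 0.644 and 0.987 CPM in the double knockout, against 5.76, 5.52 and 6.85 CPM in NlecKO (-2.70 ± 0.28, adjusted p = 4.24e-07), and Sh2d7 and Lrmp fell by 2.97 and 2.50 on the log2 scale (adjusted p = 1.34e-06 and 2.66e-06). The only tuft marker that rose was Ascl2, which is also a stem cell marker.

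Most enterocyte genes fell. Of 29 brush border hydrolases 24 were lower and none higher (median -2.12), of 36 transporters 30 were lower and 2 higher (median -2.30), and of 35 genes of lipid absorption 29 were lower and 1 higher (median -1.95). Enpep, an aminopeptidase, had 112, 34.4 and 65.7 CPM in the double knockout, against 1018, 1287 and 609 CPM in NlecKO (-3.78 ± 0.57, adjusted p = 5.55e-05). The disaccharidase Mgam had 1538, 1129 and 1396 CPM in the double knockout, against 5329.7, 7059.8 and 5306 CPM in NlecKO (-2.12 ± 0.37, adjusted p = 0.000167), and the aminopeptidases Anpep and Naaladl1 fell by 2.32 and 2.90 on the log2 scale (adjusted p = 0.000247 and 0.000153). Mttp, which loads lipid onto apolipoprotein B, had 387, 276 and 363 CPM in the double knockout, against 2263, 2267 and 1758 CPM in NlecKO (-2.61 ± 0.43, adjusted p = 0.000116). Pigr, the receptor that carries IgA across the epithelium, had 792, 597 and 652 CPM in the double knockout, against 4795, 3965 and 3358 CPM in NlecKO (-2.57 ± 0.22, adjusted p = 8.76e-08). Slc13a1, a sulfate transporter, and Slc7a8 and Slc26a3, carriers of amino acids and chloride, fell by 4.47, 3.46 and 2.92 (adjusted p = 8.49e-06, 4.81e-06 and 1.07e-05). In the other direction Cybrd1, the duodenal ferric reductase, had 580.3, 537 and 712 CPM in the double knockout, against 39.8, 22.0 and 26.4 CPM in NlecKO (4.38 ± 0.51, adjusted p = 4.28e-06), and Slc16a1 and Scd2 were the other 2 raised. Slc16a1 lost its call without double knockout replicate 2 (adjusted p = 0.0619), and Scd2 without that library or NlecKO replicate 2 or 3 (adjusted p = 0.0639 to 0.0699). NlecKO replicate 3 had the lowest level of its group for 26 of the 29, 30 of the 36 and 31 of the 35, and without it 24, 29 and 30 were called lower. Summed brush border genes ran at 6399.5 to 9060.5 CPM in the double knockout and 24032 to 32572 CPM in NlecKO. The part of the enterocyte share in other lists was not tested.

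Of 27 transcription factors that set intestinal identity 8 were higher and 12 lower (median -0.33). Hnf4g, a driver of enterocyte genes, had 64.3, 43.4 and 46.0 CPM in the double knockout, against 395, 422 and 339 CPM in NlecKO (-2.91 ± 0.26, adjusted p = 1.81e-07), and Ppara, the fatty acid sensor, had 7.36, 6.01 and 6.44 CPM in the double knockout, against 48.7, 43.6 and 28.5 CPM in NlecKO (-2.60 ± 0.27, adjusted p = 6.23e-07). Foxa1 rose with Foxa3, at 73.5, 78.0 and 74.6 CPM in the double knockout, against 28.8, 22.991 and 31.9 CPM in NlecKO (1.43 ± 0.16, adjusted p = 1.29e-06). These 3 genes, named for their small p, had no overlap between the groups. Nor had 21 of the 27 in all, against 58.3% of all genes.

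Genes of the fetal and regenerating gut had the highest median of all 33 lists, 1.97, with 24 of 30 tested higher, 2 lower and 4 not called. Anxa1, an annexin, had 44.3, 41.3 and 47.6 CPM in the double knockout, against 1.36, 1.04 and 4.01 CPM in NlecKO (4.34 ± 0.42, adjusted p = 3.79e-07). Krt23, a keratin, had 149, 185 and 199.7 CPM in the double knockout, against 9.41, 14.7 and 37.3 CPM in NlecKO (3.10 ± 0.32, adjusted p = 1.1e-06), and Tubb6, a tubulin, had 57.9, 65.4 and 69.2 CPM in the double knockout, against 5.88, 8.05 and 17.7 CPM in NlecKO (2.59 ± 0.26, adjusted p = 4.77e-07). All 30 members were without overlap between the groups, against 58.3% of all genes, and NlecKO replicate 3 was the highest of its group in 22 of them. Without that library 25 were called higher. The 2 that fell were Spp1 and Vim.

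Markers of other cell types in the preparations moved as well. Immune cell markers summed to 184 to 227 CPM in the double knockout and 785 to 1025 CPM in NlecKO, and 24 of 36 were lower, 1 higher and 11 not called, with a median of -1.52. Cd3e of the T cell receptor had 6.44, 6.97 and 5.46 CPM in the double knockout, against 28.7, 40.9 and 28.8 CPM in NlecKO (-2.38 ± 0.25, adjusted p = 5.83e-07), and the granzymes Gzma and Gzmb, made by intraepithelial lymphocytes, fell by 2.83 and 3.14 on the log2 scale (adjusted p = 1.2e-06 and 1.72e-06). None of the tested markers was at 0 in all 3 libraries of a group. NlecKO replicate 2 was the highest of its group for 30 of the 36. Of 24 genes of antigen presentation 10 were lower and 1 higher (median -0.46), with B2m at 357, 232 and 328 CPM in the double knockout, against 808, 746 and 529 CPM in NlecKO (-1.18 ± 0.26, adjusted p = 0.0012). H2-Q4 and H2-Q2 fell by 0.79 and 2.25 (adjusted p = 0.00117 and 0.00203), and they share 38.4% and 32.2% of their words. Of 37 interferon response genes 6 were higher, 2 lower and 29 not called (median 0.39). These were smaller shares called in both directions than over all genes. A fit to the 6 libraries alone called 14 higher. Without 1 library 2 to 6 were called higher, the fewest without double knockout replicate 3, and without NlecKO replicate 1, 2 or 3 the count was 3. The number called lower was 1 without double knockout replicate 1 or 2 or NlecKO replicate 1 or 2. Cxcl10, a chemokine, had 4.45, 4.18 and 7.22 CPM in the double knockout, against 0.619, 1.33 and 1.26 CPM in NlecKO (2.27 ± 0.47, adjusted p = 0.000581). Stromal and endothelial markers summed to 37.6 to 52.1 CPM in the double knockout and 35.4 to 68.0 CPM in NlecKO, with 1 of 17 higher, 3 lower and 13 not called (median -0.51). Of these Esam, an adhesion molecule, rose (1.44, adjusted p = 0.000103) and Lyve1 and Pecam1 fell (-1.76, adjusted p = 2.31e-06; -1.20, adjusted p = 0.00114). Epithelial markers summed to 13902 to 16476 CPM in the double knockout and 15065 to 17081 CPM in NlecKO, 3 of 14 being higher (5 without NlecKO replicate 3) and 5 lower (median -0.11). Cdh1, the epithelial cadherin, rose (0.55, adjusted p = 8.88e-06) and Cldn15, a tight junction protein of absorptive cells, fell (-1.32, adjusted p = 2.43e-06).

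**Figure D4:**
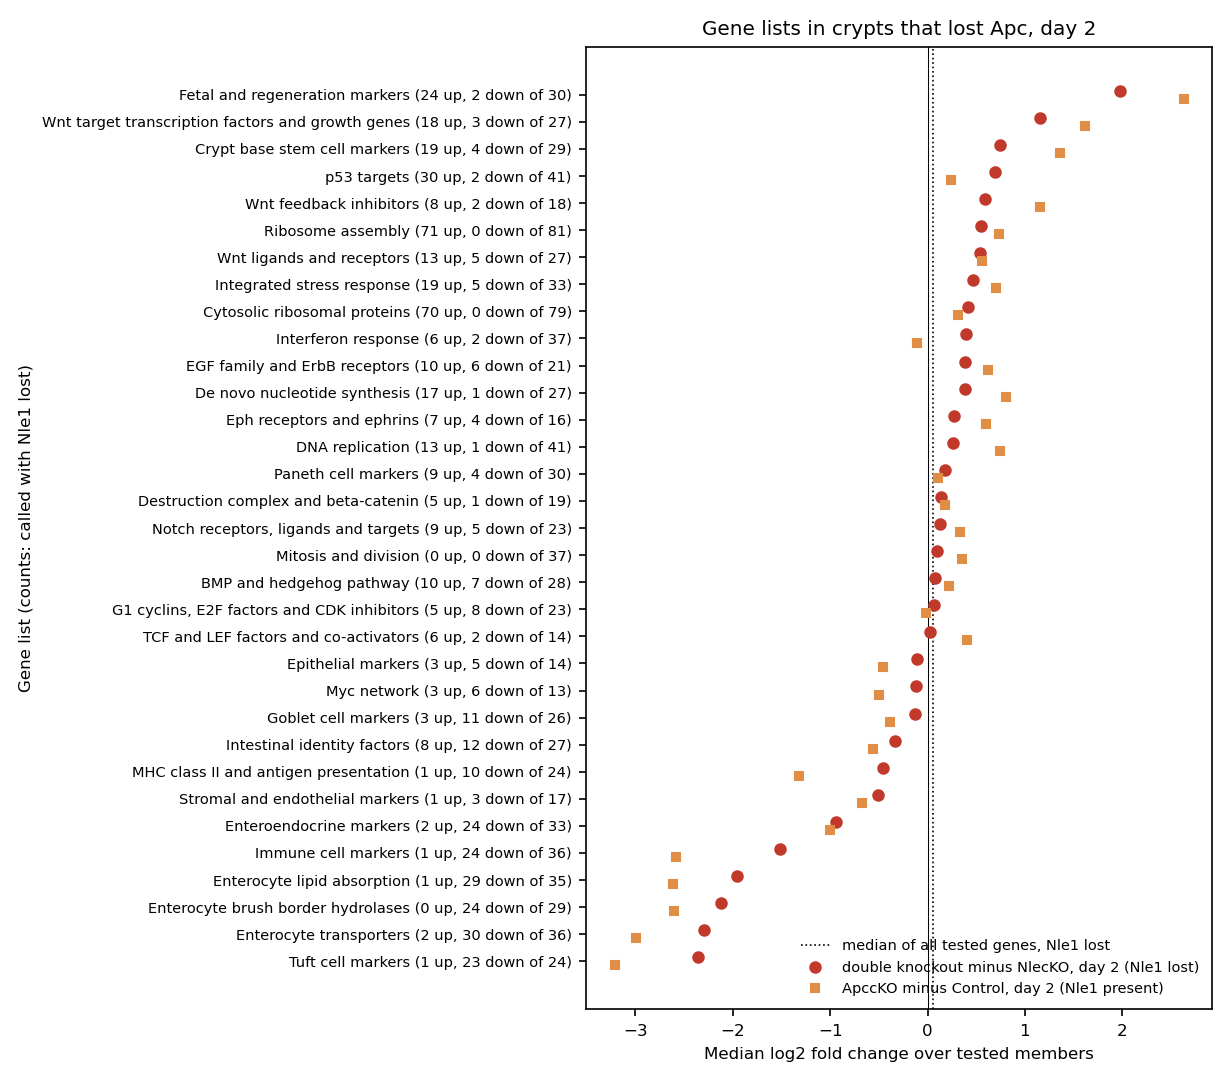
Median log2 fold change over the tested genes of each of the 33 lists (horizontal axis), for the double knockout over NlecKO and for ApccKO over Control, both on day 2, with the numbers called higher and lower. Fetal and regeneration markers are at 1.97 and 2.63, and enterocyte and tuft cell lists lie furthest left, with tuft cell markers at -2.36 and -3.21.

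Whether Apc loss acted alike with and without Nle1 was tested as the difference of the changes on day 2, the double knockout over NlecKO minus ApccKO over Control. These changes share no library. The difference was called for 868 genes (5.24%), of which 545 were positive (3.29%) and 323 negative (1.95%). ApccKO over Control alone called 9708 genes (58.7%). Both changes were called for 6593 genes, 6525 with the same sign, and 1327 genes were called with Nle1 lost alone and 3115 with Nle1 present alone. Of the 868, 158 were higher under Apc loss in both states, and in 139 of them the rise was the smaller one with Nle1 lost. Another 174 were lower in both, and in 171 of them the fall was the smaller one with Nle1 lost. Opposite signs, both called, were found for 68. The count of 868 was 374 without double knockout replicate 3 and 1222 without Control replicate 2, so its size depends on single libraries. Which sign had more calls depended on the settings. A filter of 2 CPM in 3 libraries gave 386 positive and 645 negative genes, and a fit to the libraries compared only gave 345 and 526.

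Among the 29 tested stem cell markers 12 were called in this test, 11 of them negative. Lgr5 averaged 36.1 ± 6.76 CPM in the double knockout and 20.6 ± 4.20 CPM in NlecKO, and 216 ± 51.5 CPM in ApccKO and 30.2 ± 5.18 CPM in Control (SD, n = 3 each). Its rise under Apc loss was thus smaller with Nle1 lost by 2.01 ± 0.36 on the log2 scale (adjusted p = 0.00426). Olfm4 averaged 376 ± 102 CPM in the double knockout and 679 ± 265 CPM in NlecKO, and 1975 ± 107 CPM in ApccKO and 1360.0 ± 209.8 CPM in Control (difference -1.39 ± 0.34, adjusted p = 0.0228). Pdgfa was not called with Nle1 lost and averaged 63.2 CPM in ApccKO and 27.9 CPM in Control (difference -1.11 ± 0.17, adjusted p = 0.000874). The other negative differences were Gkn3 (-2.18), Tnfrsf19 (-1.52), Aqp4 (-1.30), Mex3a (-1.22), Msi1 (-1.04), Slc12a2 (-0.83), Cdca7 (-0.78) and Rnf43 (-0.46), with adjusted p between 0.00506 and 0.033. Tert was positive (0.65, adjusted p = 0.0492). Without double knockout replicate 3 the adjusted p of Olfm4, Gkn3, Tnfrsf19, Aqp4, Mex3a, Msi1 and Rnf43 was between 0.0516 and 0.0959 and that of Tert 0.122. Mex3a also lost its call without ApccKO replicate 1 or NlecKO replicate 1, and Olfm4, Gkn3, Aqp4, Msi1, Rnf43 and Tert without any of 6 to 10 of the 12 libraries, with adjusted p up to 0.122. Lgr5, Pdgfa, Slc12a2 and Cdca7 kept their calls with any 1 library left out. Axin2, Ascl2, Sox9, Ephb2 and Znrf3 were not called in this test, with differences of -0.44, -0.20, -0.10, -0.38 and -0.36 and adjusted p of 0.239, 0.685, 0.884, 0.175 and 0.273.

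Among named genes of the other Wnt lists, negative differences were called for Tcf7 (-0.60, adjusted p = 0.0474), Csnk1e (-0.87, adjusted p = 0.0288), Tle3 (-0.69, adjusted p = 0.00865) and Ror2 (-0.81, adjusted p = 0.0155). Positive ones were called for Tle4 (0.61, adjusted p = 0.00707) and Fzd5 (0.69, adjusted p = 0.00725). Of the 27 tested Wnt targets 4 were called negative, Tnfrsf19 included, and 1 positive. Of the 27 ligands and receptors 3 were called negative and 1 positive. Without double knockout replicate 3 the adjusted p was 0.107 for Tcf7, 0.0802 for Csnk1e and 0.0509 for Ror2. Without ApccKO replicate 1 it was 0.131 for Tcf7, whose call ended without any of 10 of the 12 libraries, and that of Csnk1e ended without 7. The median change of the Wnt targets was 1.16 with Nle1 lost and 1.62 with Nle1 present, and that of the feedback inhibitors 0.59 and 1.16.

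Of the p53 targets 6 were called in this test. All 6 called p53 targets were positive, among them Dcxr, which averaged 109 CPM in the double knockout and 62.9 CPM in NlecKO, and 14.4 CPM in ApccKO and 22.5 CPM in Control (difference 1.44 ± 0.19, adjusted p = 0.000321). The list median was 0.70 with Nle1 lost and 0.24 with Nle1 present. All 8 called goblet cell markers were positive, and all but Ccl6 were called lower with Nle1 lost. Tff3 averaged 422 CPM in the double knockout and 919 CPM in NlecKO, and 162 CPM in ApccKO and 808 CPM in Control (difference 1.19 ± 0.16, adjusted p = 0.000327). Fcgbp differed by 1.49 ± 0.25, adjusted p = 0.00172. Fer1l6 differed by 1.65 ± 0.30, adjusted p = 0.00426. Egfr, Efna3 and Rb1 also had positive differences, of 0.89, 1.16 and 0.64 (adjusted p = 0.00439, 0.00926 and 0.00478). None of the tested ribosome assembly, ribosomal protein, mitosis, stress response, brush border, fetal or interferon genes was called in this test.

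The most positive differences over all genes included Alox5, the 5-lipoxygenase of leukotriene synthesis and of tuft cells. It had 2.95, 5.04 and 4.83 CPM in the double knockout and 11.6, 9.75 and 15.2 CPM in NlecKO, and 0.217, 0.271 and 0.1395 CPM in ApccKO and 8.84, 6.603 and 11.9 CPM in Control (difference 3.88 ± 0.53, adjusted p = 0.000351). Its fall under Apc loss was the smaller one with Nle1 lost. Ltb4r1 and Ltb4r2, adjacent leukotriene B4 receptors on chromosome 14, differed by 3.65 and 3.60 (adjusted p = 0.00261 and 0.00268), and Ltb4r1 had 8.35, 9.60 and 12.6 CPM in the double knockout and 6.69, 5.89 and 10.3 CPM in NlecKO, and 0.434, 0.496 and 0.465 CPM in ApccKO and 6.17, 1.85 and 5.41 CPM in Control. For Ltb4r1 the double knockout and NlecKO overlapped and the gene was not called between them (0.41, adjusted p = 0.386). The 3 ApccKO libraries were the lowest of the 12. Gsdmc2, a gasdermin with 63.9% of its words shared, had 0.748, 0.376 and 0.728 CPM in the double knockout and 2.54, 1.99 and 7.01 CPM in NlecKO, and 0.130, 0.180 and 0.279 CPM in ApccKO and 21.4, 67.7 and 75.2 CPM in Control (difference 5.46 ± 1.01, adjusted p = 0.005). Sco2, a copper chaperone of cytochrome oxidase, had 11.97, 13.2 and 14.4 CPM in the double knockout and 40.2, 51.3 and 32.9 CPM in NlecKO, and 0, 0 and 0 CPM in ApccKO and 22.6, 6.27 and 19.4 CPM in Control. With ApccKO at 0 its fitted difference of 9.71 depends on the prior count and is no bound, and 66.2% of its words are shared. Rgs5, among the most raised with Nle1 lost, had 0.564, 0.496 and 0.326 CPM in ApccKO and 0.175, 0.260 and 0.161 CPM in Control (difference 4.56 ± 0.96, adjusted p = 0.0087). Meg3 and Rian also differed, by 2.30 and 2.52 (adjusted p = 0.00481 and 0.0388). Rian lost its call without any of 8 of the 12 libraries, with adjusted p up to 0.125 (without Control replicate 2).

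The most negative difference was that of H19, an imprinted noncoding RNA, with 3.45, 2.52 and 3.07 CPM in the double knockout and 0.433, 0.747 and 1.22 CPM in NlecKO, and 31.01, 19.6 and 38.0 CPM in ApccKO and 0.0582, 0.148 and 0.321 CPM in Control (difference -5.48 ± 1.33, adjusted p = 0.0228). H19 was not called between the double knockout and NlecKO (1.86, adjusted p = 0.0657). Its Control libraries were near 0, so the size of the difference rests on few counts. Cym, which encodes chymosin, had 1.496, 0.215 and 0.779 CPM in the double knockout and 12.01, 6.23 and 4.05 CPM in NlecKO, and 10.3, 11.9 and 15.6 CPM in ApccKO and 5.18, 1.11 and 5.09 CPM in Control (difference -4.84 ± 0.81, adjusted p = 0.00278). Slit2, a guidance ligand, had 3.82, 3.54 and 3.48 CPM in the double knockout and 7.92, 8.47 and 9.36 CPM in NlecKO, and 13.1, 9.47 and 9.81 CPM in ApccKO and 4.66, 3.86 and 4.93 CPM in Control (difference -2.52 ± 0.28, adjusted p = 4.59e-05). Slit2 and Cym were lower under Apc loss with Nle1 lost and higher with Nle1 present, with all 4 changes called. Etv4, an ETS factor downstream of growth factor receptors, had 82.7, 96.7 and 89.0 CPM in the double knockout and 23.8, 35.2 and 64.2 CPM in NlecKO, and 72.0, 67.0 and 62.1 CPM in ApccKO and 3.78, 7.23 and 7.28 CPM in Control (difference -2.33 ± 0.41, adjusted p = 0.00407). Nos2, the inducible nitric oxide synthase, differed by -3.57 ± 0.997, adjusted p = 0.0452. H19 lost its call without double knockout replicate 3, NlecKO replicate 3 or Control replicate 1 (adjusted p = 0.056, 0.0748 and 0.0638). Nos2 lost it without any of 8 of the 12 libraries, with adjusted p up to 0.126 (without ApccKO replicate 2).

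**Figure D5:**
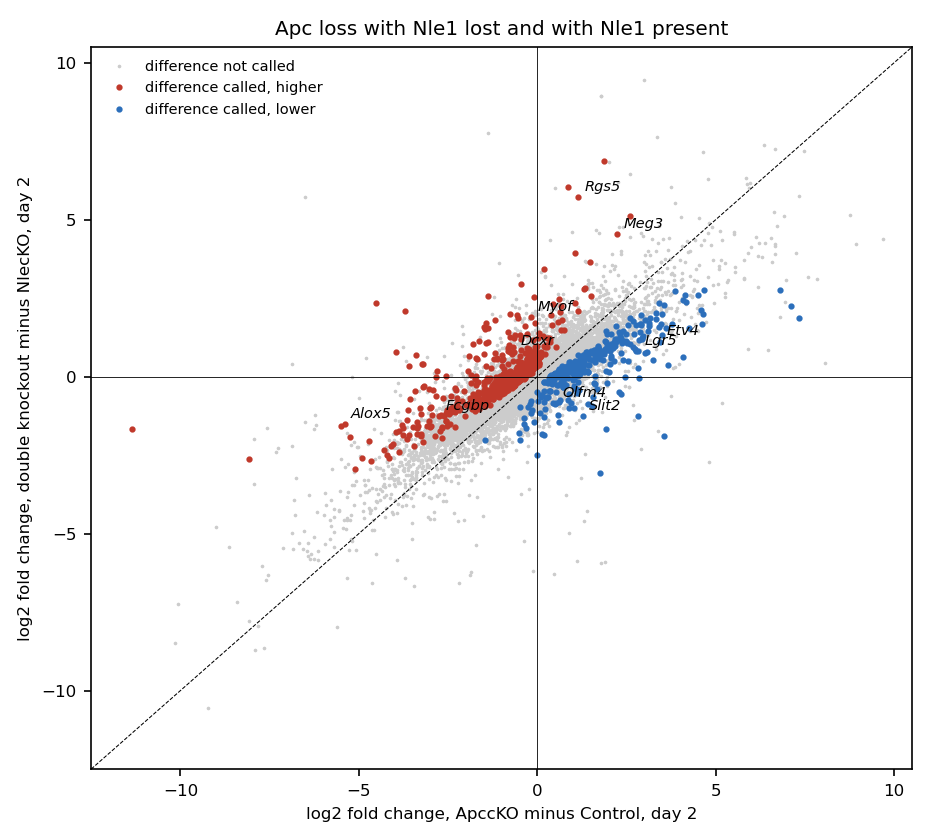
Log2 fold change of each tested gene under Apc loss on day 2, with Nle1 present (ApccKO over Control, horizontal axis) and with Nle1 lost (double knockout over NlecKO, vertical axis), the dashed line marking equal change. Red and blue points are the 545 and 323 genes whose difference was called positive and negative, and Lgr5 lies at 0.82 on the vertical axis and 2.83 on the horizontal.

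Day 2 was last set against day 1, as the change by Apc loss with Nle1 lost on day 2 minus that on day 1. The difference was called for 48 genes (0.29%), of which 32 were positive (0.193%) and 16 negative (0.0967%). On day 1 the double knockout differed from NlecKO in 8708 genes (52.6%), and 6314 were called on both days, 6286 with the same sign. Without double knockout replicate 3 of day 2 a single gene, Myof, was called, and without double knockout replicate 3 of day 1 the count was 120. Leaving out any of the NlecKO libraries of day 1 gave 10 to 23 genes, and leaving out double knockout replicate 2 of day 1 gave 9.

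Myof, a membrane protein of vesicle fusion and repair, had 61.0, 65.5 and 75.2 CPM in the double knockout and 14.5, 16.1 and 23.1 CPM in NlecKO on day 2, and 18.4, 13.5 and 16.9 CPM in the double knockout and 14.8, 14.8 and 16.3 CPM in NlecKO on day 1 (difference 1.81 ± 0.24, adjusted p = 0.00383). On day 1, when the change was 0.09, its groups overlapped, as did those of Col18a1. Col18a1, a collagen of basement membranes, had 15.8, 16.4 and 19.2 CPM in the double knockout and 3.71, 3.49 and 3.04 CPM in NlecKO on day 2, and 4.65, 5.74 and 3.79 CPM in the double knockout and 3.60, 4.63 and 4.86 CPM in NlecKO on day 1 (difference 2.22 ± 0.35, adjusted p = 0.0117). Klf5, a zinc finger factor of crypt cells, was higher under Apc loss on day 2 and lower on day 1, with 292, 351 and 384 CPM in the double knockout and 259, 243 and 249 CPM in NlecKO on day 2, and 207, 201 and 188 CPM in the double knockout and 266, 282 and 272 CPM in NlecKO on day 1 (difference 0.91 ± 0.15, adjusted p = 0.0131). Sh3pxd2a and Sh3tc1 were the other 2 most positive (0.98, adjusted p = 0.0376, and 1.60, adjusted p = 0.0477). On the negative side, Olfm4 had 470.0, 391 and 267 CPM in the double knockout and 983, 564 and 490.4 CPM in NlecKO on day 2, and 2074, 2891 and 1669.8 CPM in the double knockout and 902, 901 and 952 CPM in NlecKO on day 1 (difference -2.12 ± 0.34, adjusted p = 0.0131). Olfm4 was thus raised by Apc loss on day 1 (1.27, adjusted p = 0.000304) and lowered on day 2. Aqp4 and Clca4, likewise stem cell markers, differed by -2.10 ± 0.33 and -1.86 ± 0.33 (adjusted p = 0.0117 and 0.0216), and Slc12a2 by -0.77, adjusted p = 0.0418. The monocarboxylate carrier Slc16a12, and Acss1, which makes acetyl-CoA in mitochondria, also differed, by -1.32 and -1.15 (adjusted p = 0.0368 and 0.00858). Without double knockout replicate 3 of day 2 the adjusted p was 0.056 for Col18a1, Aqp4 and Olfm4, 0.0645 for Klf5 and 0.053 for Acss1, and between 0.0916 and 0.195 for the other 5. Of the genes named for this test only Myof kept its call under all alternatives that gave a value.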

How the data were processed

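RNA from isolated jejunal crypts was sequenced by Novogene after Trizol-chloroform extraction, 1 library per mouse and 3 mice per genotype and day. The deposited estimated counts and TPM per gene are the authors'. The submitters' processing notes name kallisto 0.43, the mm9 build, DESeq2 and DESeq, without saying which step used which. A table of normalised counts deposited beside them was not used here. Transcript quantification shares reads between near-identical copies, so the share of 31-base transcript words that a gene has in common with others was counted in GENCODE M21. That reference and RefSeq promoters are on GRCm38.p6, not on mm9, and served only for names, neighbours, shared words and promoter letters.

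Estimated counts were rounded and tested with the quasi-likelihood test of edgeR 4.0.16 (limma 3.58.1, R 4.3.3), robust, with TMM factors, on all 24 libraries with 1 term per genotype and day. Genes passed edgeR's filter at a minimum count of 10, and p-values were adjusted over all tested genes by Benjamini-Hochberg, with calls under 0.05. The SE is the log2 fold change divided by the root of F. The difference by Nle1 state and the difference by day are contrasts of the same fit. The code was tested on simulated data. Alternatives were DESeq2 1.42.0, its size factors in edgeR, no filter, 2 CPM in 3 libraries, a replicate block, a term for sex, a fit without provisional symbols and ribosomal proteins, a fit to the libraries compared only and each library left out in turn. A fit without ApccKO replicates 2 and 3 and double knockout replicate 3 of day 1 was added after seeing the data.

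Members and gene lists were chosen with earlier results of these data known, so no list is independent evidence. Named genes are Apc and Nle1, the 12 most raised and the 12 most lowered called genes of at least 5 CPM on average, without overlap and with an established symbol, the 5 most positive and the 5 most negative of each difference test, up to 5 members of each list by smallest p, and all members of the lists of feedback inhibitors, destruction complex, TCF and LEF factors and stem cell markers. The values of 3 genes that this rule names are not reported here, though they stay in the counts. Other genes were named after their values were seen, where a count was 5 or fewer or a result turned on them. Precision rests on the spread between 3 mice per group and on depth.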

Additional observations from a re-analysis of the deposited data

Results flagged for a closer look

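These genes are listed because the change by Apc loss differed between 2 settings in the edgeR test of that difference, by state of Nle1 on day 2 or by day. The log2 differences are signed as in the report, with Nle1 lost minus Nle1 present, and day 2 minus day 1. Each test was run over all 16552 genes, and 868 and 48 were called. The causes were not tested.

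Between states of Nle1, negative differences among Wnt and stem cell genes were called for Gkn3 (-2.18), Lgr5 (-2.01), Tnfrsf19 (-1.52), Olfm4 (-1.39), Aqp4 (-1.30), Mex3a (-1.22), Pdgfa (-1.11), Msi1 (-1.04), Csnk1e (-0.87), Slc12a2 (-0.83), Ror2 (-0.81), Cdca7 (-0.78), Tle3 (-0.69), Tcf7 (-0.60) and Rnf43 (-0.46). Positive differences in these lists included those of Tle4 (0.61), Tert (0.65) and Fzd5 (0.69). Ephrins, Egfr and the cell cycle gene Rb1 had positive differences, with Efnb1 at 0.67, Efnb2 at 1.03, Efna3 at 1.16, Egfr at 0.89 and Rb1 at 0.64. Named markers and factors of differentiated cells also had positive differences, with Gip at 0.99, Tff3 at 1.19, Ccl6 at 1.25, Fcgbp at 1.49, Fer1l6 at 1.65, Ppara at 1.56, Ptgs1 at 1.96 and Alox5 at 3.88, and so had the p53 target Dcxr at 1.44. Not all such markers did. Of the tuft cell markers 2 were called positive and 1 negative, and the 1 Paneth cell marker called was negative. Outside these lists the negative differences were those of H19 (-5.48), Cym (-4.84), Nos2 (-3.57), Slit2 (-2.52), Acss1 (-1.31) and Slc16a12 (-0.93). Within lists of the report they were those of Etv4 (-2.33), Esam (-1.66), of the stromal and endothelial list, and Mthfd1l (-0.66), of folate metabolism. Other positive ones were Klf5 (0.90), Col18a1 (1.27), Sh3tc1 (1.44), Myof (2.07), Meg3 (2.30), Rian (2.52), Ltb4r2 (3.60), Ltb4r1 (3.65), Rgs5 (4.56), Gsdmc2 (5.46) and Sco2 (9.71), the last of which was at 0 in the 3 ApccKO libraries, so its value is no bound. Calls that ended without 1 library, beside those in the report, were those of Ppara, Ptgs1, Mthfd1l, Col18a1, Sh3tc1 and Slc16a12. Their highest adjusted p was 0.0623 and 0.0534 for Ppara and Ptgs1 (without ApccKO replicate 1), 0.121 for Mthfd1l (without Control replicate 3), 0.122 for Col18a1 (without Control replicate 1), and 0.0669 and 0.115 for Sh3tc1 and Slc16a12 (without double knockout replicate 3).

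Between days, the differences were negative for Olfm4 (-2.12), Aqp4 (-2.10), Clca4 (-1.86), Slc16a12 (-1.32), Acss1 (-1.15) and Slc12a2 (-0.77), and positive for Klf5 (0.91), Sh3pxd2a (0.98), Sh3tc1 (1.60), Myof (1.81) and Col18a1 (2.22).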

How the results depend on the processing

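The count of genes changed by Apc loss with Nle1 lost (7920) was between 7087 and 7948 over the other settings and between 6590 and 7839 without 1 library, with 3412 to 4170 higher and 3010 to 3669 lower. The share of higher calls was 48.0% to 54.3%, and no scaling moved the median of all genes by 0.1. For the difference by Nle1 state, leaving out 1 library gave 374 to 1222 genes, with 265 to 685 positive and 109 to 537 negative. Negative calls numbered 205 with no filter, 645 with 2 CPM in 3 libraries, 526 with only the libraries compared and 551 with DESeq2. Positive calls numbered 386 with 2 CPM in 3 libraries and 345 with only the libraries compared. In these 2 settings negative calls outnumbered positive ones, the reverse of the main fit. For the difference by day, leaving out 1 library gave 1 to 120 genes, with 1 to 57 positive and 0 to 63 negative. Only the libraries compared gave 6 (5 positive and 1 negative), and DESeq2 229 (154 positive and 75 negative). Positive calls numbered 18 with no filter, and negative calls 33 without ApccKO replicates 2 and 3 and double knockout replicate 3 of day 1, an alternative chosen after seeing the data. A replicate block gave 7870 genes for Apc loss, 778 for the difference by Nle1 state and 41 for that by day. Same-numbered libraries of the double knockout and NlecKO correlated in their deviations at 0.27, -0.128 and 0.179, so the numbers were not taken to pair mice. Of 238 named genes called in the main comparison 216 were called in every setting, as were 33 of 54 in the difference by Nle1 state and 1 of 11 in that by day, and none changed sign when called. Calls of Ctnnb1, Cdk2, Bmi1, Mnt, Gmnn, Olfm4, Reg4 and Wnt9b in the main comparison also ended under other filters, models or library sets. The cause was not tested. Precision is limited by 3 mice per group and by counts at genes of low level, and Apc and Nle1 deletion per cell was not analysed here.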
